A study of Homo sapiens with 3 samples.

Results

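The genes described here are the adenylate cyclases and the cyclic nucleotide phosphodiesterases. They were chosen by symbol, as every feature named ADCY followed by a number or PDE followed by a number and a letter. The rule took 35 of the 33538 features, 10 of them cyclases and 25 phosphodiesterases. The 25 stand for 24 symbols, because PDE11A is listed under a pair of identifiers whose exons overlap on the same strand. In the kept cells 75 UMIs fell to the first of these identifiers and 0 to the other. How reads that match both were counted was not checked.

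Adenylate cyclases make cyclic AMP from ATP. In islet cells, receptors coupled to the stimulatory G protein raise cyclic AMP and receptors coupled to inhibitory G proteins, such as those for somatostatin, lower it, and cyclic AMP promotes hormone secretion through protein kinase A and the Epac exchange factors. Phosphodiesterases hydrolyse cyclic AMP, cyclic GMP or both, and each family differs in its substrate and in what regulates it.

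The study differentiated HUES8, a human embryonic stem cell line, into alpha cells, the glucagon-secreting cells of the islet. It holds 3 single-cell libraries of one group, SC-A replicates 1 to 3, made with the 10x Genomics 3' v3 chemistry, with no treatment and no control group named in the labels. The labels do not say whether the replicates are separate differentiations, so the spread between these libraries may be technical. The p-values rest on this spread as the tests estimate it, with information shared over all genes tested. They do not measure the spread of a single gene between its libraries alone. The replicates hold 30139788, 31122791 and 30980799 unique molecular identifiers (UMIs) over 2850, 2576 and 4257 barcodes.

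Barcodes under 1000 detected genes or over 20% mitochondrial UMIs were dropped, which left 1160, 1027 and 1466 cells per replicate, with medians of 15267, 20721 and 9991.5 UMIs. They were sorted by transcript content, and a cell could fall in more than one class. INS cells had at least 1% of UMIs from insulin (26, 59 and 7 cells in replicates 1, 2 and 3). SST cells had at least 1% from somatostatin (30, 54 and 29 cells). TPH1 cells had at least 3 UMIs of TPH1, the enzyme that starts serotonin synthesis (36, 20 and 107 cells). Collagen cells had at least 10 UMIs over COL1A1, COL1A2 and COL3A1 (9, 11 and 98 cells). GCG cells had at least 5% of UMIs from glucagon (854, 860 and 914 cells). Of the INS cells 72 of 92, and of the SST cells 80 of 113, were also GCG cells, against 8 of 163 TPH1 cells and 1 of 118 collagen cells. The INS and SST classes had 1, 9 and 1 cells in common in replicates 1, 2 and 3.

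Marker lists bore on these names. The 8 alpha-cell markers summed to between 206548 and 235118 CPM, the counts of a gene scaled to a library total of 1000000, in GCG cells. That list holds GCG, which sets the class and averaged 147569 CPM there, so the sum follows in part from the rule. TPH1 cells under 5% GCG carried FEV at 406, 453 and 690 CPM and DDC at 1074, 1036 and 763 CPM, against 116, 147 and 107 CPM and 114, 127 and 110 CPM in cells that were GCG cells alone. In TPH1 cells of replicate 2, LYZ stood at 1584 CPM, against 0 and 3.5 CPM in the other replicates. The 6 neural markers summed to 195, 134 and 128 CPM in TPH1 cells and 11.2, 7.65 and 32.8 CPM in GCG cells, with SOX2 at 178, 104 and 80.5 CPM in TPH1 cells and 0.84, 0.18 and 3.52 CPM in GCG cells. The 4 proliferation markers summed to 0, 216 and 2.33 CPM in TPH1 cells and 1.74, 24.3 and 1.76 CPM in GCG cells. Collagen cells carried 8 mesenchymal markers at 5533 to 8859 CPM, 4 proliferation markers at 568 to 1379 CPM and 6 neural markers at 171 to 584 CPM. In GCG cells the same lists summed to 2.3 to 15.5, 1.6 to 21.7 and 8.1 to 33.1 CPM. The mesenchymal list holds the collagen genes of the rule, COL1A1, COL1A2 and COL3A1, which averaged 2695, 1614 and 1730 CPM in collagen cells. LUM, DCN, PDGFRA, PDGFRB and ACTA2, outside the rule, averaged 951, 263, 58.4, 190 and 183 CPM there. Each of these averaged under 1 CPM in GCG cells. The endothelial markers CDH5, KDR and PECAM1 were at 0 in every class other than GCG cells. In INS cells the 8 beta-cell markers, INS among them, summed to 27937, 23809 and 44888 CPM in replicates 1, 2 and 3. The 6 delta-cell markers, SST among them, summed to 5694, 9413 and 47003 CPM there. In SST cells the delta list summed to 32421, 43285 and 35554 CPM and the beta list to 3604, 4489 and 4054 CPM. By the overlap given above, the INS and SST classes were mostly GCG cells that also held insulin or somatostatin transcripts.

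Levels below are CPM of the summed counts of a class in one library. The 3' chemistry counts each molecule once, so levels were not divided by gene length, and differences in capture between genes were not tested. In GCG cells 14 members reached 5 CPM (5 cyclases and 9 phosphodiesterases), 3 lay between 1 and 5 CPM, 15 were above 0 and under 1 CPM, and 3 had no UMI. The last 3, PDE4C, the cone enzyme PDE6C and a PDE11A identifier, had none in any kept cell.

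Among the cyclases, ADCY2, which beta-gamma subunits of G proteins can stimulate, came first in GCG cells. It had 50.6, 41.5 and 38.3 CPM in replicates 1, 2 and 3, or 38.1% ± 2.8 (SD, n = 3) of cyclase UMIs. ADCY1, activated by calcium and calmodulin, had 34.5, 30.2 and 22 CPM, or 25.2% ± 3.8. ADCY2 was first and ADCY1 second in each of the 3 libraries, and their ranges did not overlap. ADCY9, a cyclase that responds poorly to forskolin, followed at 13.4, 15.1 and 14.6 CPM. The calcium-inhibited ADCY6 averaged 13.7 ± 1.5 CPM and ADCY7, a relative of ADCY2, 12.2 ± 2.7 CPM, so that ADCY9, ADCY6 and ADCY7 did not differ beyond their spread. The other 5, ADCY5, ADCY3, ADCY10, ADCY4 and ADCY8, were each under 1 CPM.

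The phosphodiesterases of GCG cells were led by PDE3B, which hydrolyses cyclic AMP, is inhibited by cyclic GMP and is activated by insulin signalling in fat and liver. Its level was 146, 136 and 128 CPM in replicates 1, 2 and 3, which is 51.0% ± 2.1 of phosphodiesterase UMIs. PDE4D, specific for cyclic AMP, was second with 42.3, 41.1 and 46.0 CPM, or 16.1% ± 1.2. Both held their rank in all 3 libraries, and no library's PDE4D level reached any library's PDE3B level. PDE3B spans chr11:14643723-14872044 on the plus strand and PDE4D chr5:58969038-60522120 on the minus strand of GRCh38, where an exon of PART1 lies antisense to PDE4D. The labels do not say whether reads were counted by strand, so PDE4D and PART1, ADCY7 and BRD7, and PDE6D and COPS7B may share reads.

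Below these stood the cyclic GMP enzyme PDE9A (16.2, 16.9 and 17.2 CPM) and PDE8A, a cyclic AMP enzyme of high affinity (16.7, 17.1 and 13.2 CPM), whose ranges overlapped. PDE4B, another cyclic AMP enzyme, had 10.2, 10.2 and 15.8 CPM, and PDE6D, a prenyl-binding protein with no catalytic domain, 11.2, 11.8 and 12.1 CPM, again overlapping. PDE6B, the rod photoreceptor enzyme, averaged 10.0 ± 0.96 CPM. PDE7A averaged 8.3 ± 1.2 CPM and the calmodulin-activated PDE1C 5.9 ± 1.2 CPM. Library to library, PDE9A was among the steadiest members, its highest level 1.06 times its lowest, while PDE4B, high in replicate 3, and ADCY1, low there, varied 1.55-fold and 1.57-fold.

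Grouped by substrate, enzymes that accept both nucleotides (the PDE1, PDE2, PDE3, PDE10 and PDE11 families) took 54.6% ± 2.5 of the phosphodiesterase UMIs of GCG cells. Enzymes for cyclic AMP (PDE4, PDE7 and PDE8) took 29.99% ± 2.0 and enzymes for cyclic GMP (PDE5, PDE9 and the catalytic PDE6 genes) 10.9% ± 0.33. The UMIs of all phosphodiesterases for each cyclase UMI were 1.56 ± 0.29 in INS cells, 2.29 ± 0.61 in SST cells, 1.10 ± 0.091 in TPH1 cells, 5.51 ± 2.8 in collagen cells and 2.36 ± 0.12 in GCG cells (SD, n = 3 each). The collagen ratios were 6.0, 8.0 and 2.52 in replicates 1, 2 and 3, of which the first and second rest on 4 and 3 cyclase UMIs and the last, near that of GCG cells, on 67.

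**Figure D1:**
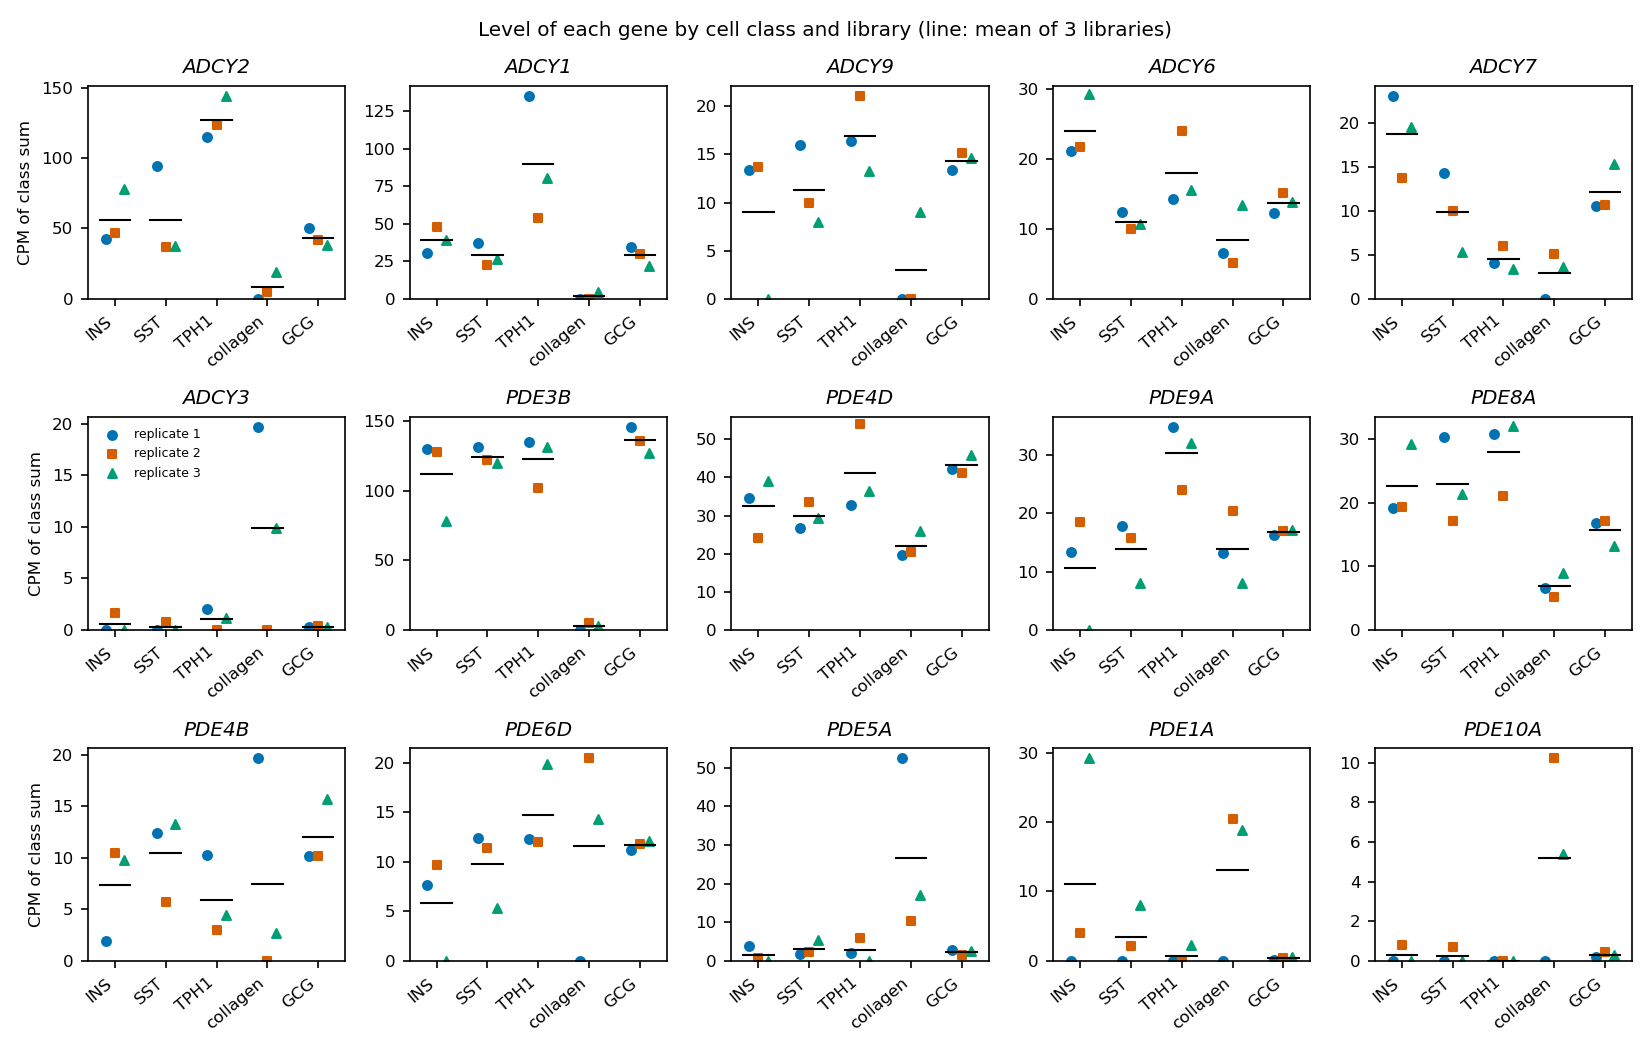
Level of 15 members (y axis, CPM of the class sum, linear, each panel from 0) in 5 cell classes (x axis); each point is 1 of the 3 libraries and the line their mean. PDE3B lies at or under 5.12 CPM in collagen cells and between 128 and 146 CPM in GCG cells, and ADCY2 lies at 115 CPM or above in all 3 libraries of TPH1 cells.

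PDE3B was also the leading phosphodiesterase of INS, SST and TPH1 cells in all 3 libraries. It averaged 112 ± 30 CPM in INS cells, where replicate 3 has 7 cells and 8 PDE3B UMIs, 124 ± 6.3 CPM in SST cells and 123 ± 18 CPM in TPH1 cells. ADCY2 led the cyclases of SST cells in all 3 libraries. In INS cells ADCY1 led in replicate 2, with 59 UMIs against 58 of ADCY2, and in TPH1 cells ADCY1 led in replicate 1, with 66 against 56. In the kept cells of no class, 707 in all, the PDE3 pair took 45.1% ± 5.6 and ADCY1 with ADCY2 67.1% ± 4.7 of their family's UMIs.

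**Figure D2:**
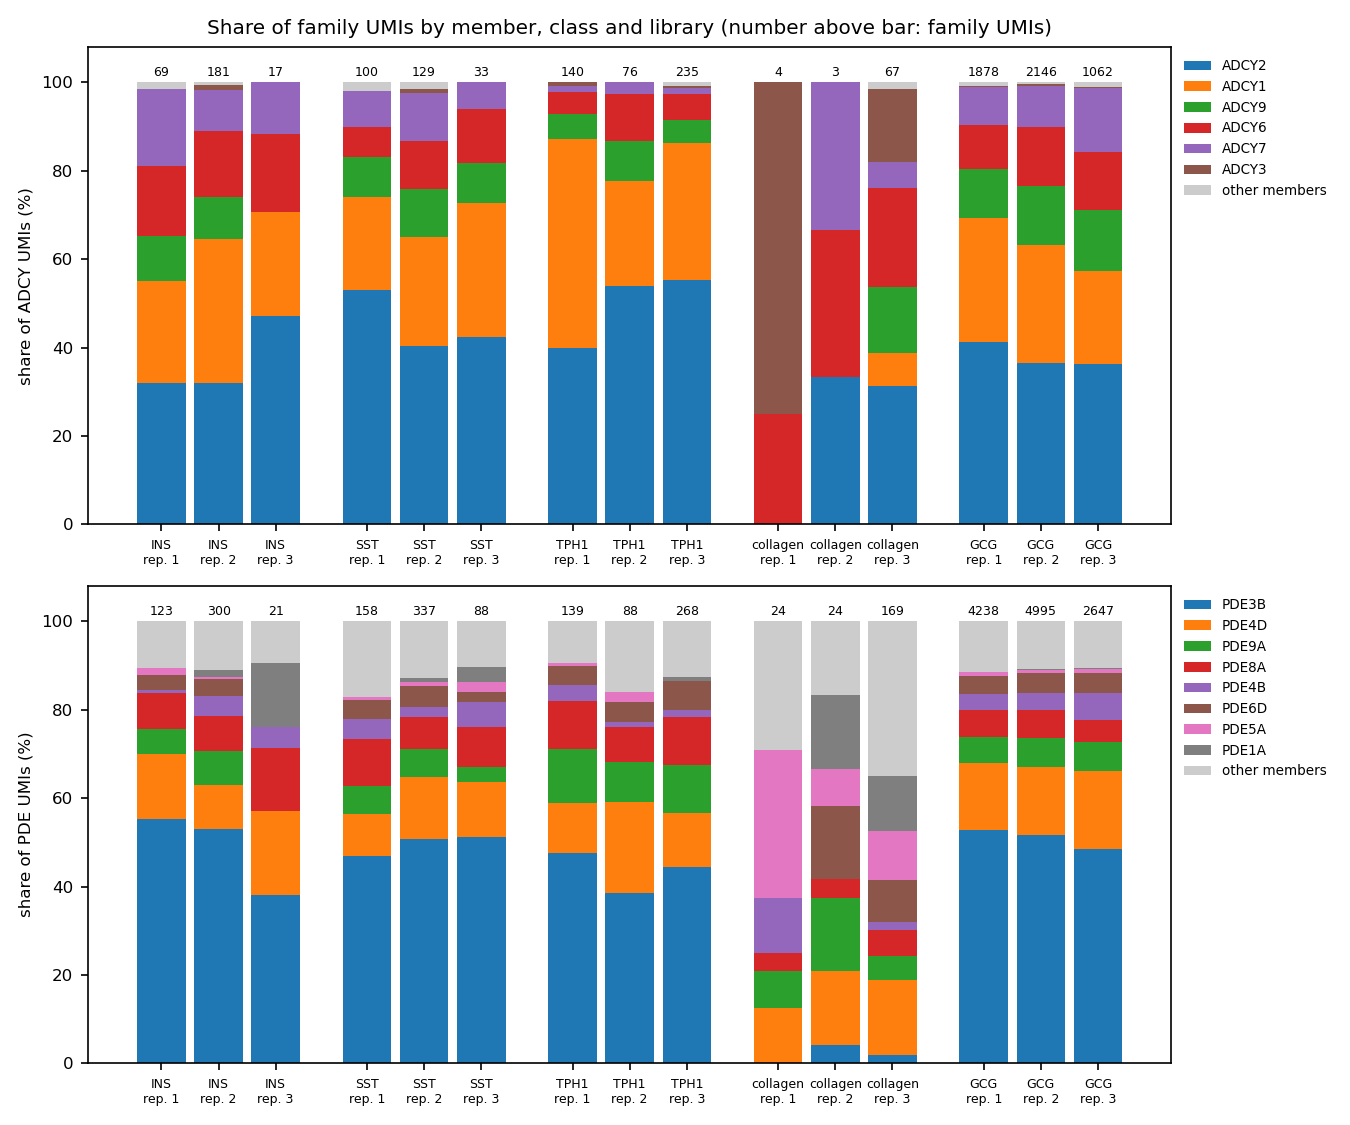
Share of cyclase UMIs (upper panel) and of phosphodiesterase UMIs (lower panel) held by each member, in percent from 0 to 100, by class and library; the number above a bar is the family's UMIs in that library. PDE3B holds 0 to 4.17% in collagen cells, whose cyclase bars for replicates 1 and 2 rest on 4 and 3 UMIs, and 38.1% or more in every bar of the INS, SST, TPH1 and GCG classes.

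Each class was compared with GCG cells that met no other rule (809, 778 and 884 cells), using libraries with at least 10 cells of the class. TPH1 and collagen cells entered with those at 5% GCG or more left out. All comparisons use the same GCG cells, so they are not independent, and fold changes are the class over GCG cells in edgeR's quasi-likelihood test with the library as a block and Benjamini-Hochberg adjustment over all genes tested. A gene in summed counts can differ because fewer cells carry it or because each carries less; these were not told apart except where shares of cells are given.

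No member passed the test in INS cells against GCG cells, which used replicates 1 and 2. Of the 35 members 16 were tested and 0 called by edgeR, with 4 at an unadjusted p under 0.05 and 0 called by DESeq2, where 1.39% of all 13315 genes were called. PDE3B had 130 and 128 CPM in INS cells and 147 and 137 CPM in GCG cells, and the 95% interval of its log2 difference ran from -0.34 to 0.10. ADCY2 had 42.2 and 46.8 CPM in INS cells and 50.4 and 41.7 CPM in GCG cells, so the classes overlapped. The 4 members with a small unadjusted p were PDE4D (log2 fold change -0.62, adjusted p = 0.135), ADCY1 (0.44, adjusted p = 0.388), ADCY7 (0.71, adjusted p = 0.531) and ADCY6 (0.64, adjusted p = 0.474), the last named after its values were seen. The median log2 fold change was -0.12 over the members tested and -0.013 over all genes. PDE1A did not pass the filter on low counts and was not tested. Its pooled level was 29.6 times that of GCG cells (95% counting interval 5.75 to 190), on 5 UMIs in INS cells and 3 in GCG cells. All 5 came from replicate 2, and replicate 1 had 0. In replicate 3, outside the test, INS cells had 3 PDE1A UMIs (29.2 CPM). In SST cells, where PDE1A was not tested either, the pooled level was 11.6 times that of GCG cells (3.41 to 36.6), on 6 UMIs against 9.

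SST cells against GCG cells, over 3 libraries, gave the same count. Of 15 members tested edgeR called 0, DESeq2 called 0, and 1 had an unadjusted p under 0.05, where 1.24% of all 12543 genes were called. That member was PDE4D, with 26.7, 33.5 and 29.3 CPM in SST cells and 42.8, 42.1 and 46.4 CPM in GCG cells. It was lower in SST cells in 3 of 3 libraries without overlap, at a log2 fold change of -0.49 ± 0.19 (SE) and an adjusted p of 0.308. For PDE3B the interval was -0.38 to 0.07. ADCY2 had 94.3, 37.1 and 37.3 CPM in SST cells and 50.4, 41.7 and 38.0 CPM in GCG cells; replicate 1 stood apart from the others, and 1 cell held 10 of its 53 UMIs. The median was -0.13 over the members and -0.0076 over all genes.

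Along the rest of the pathway, a list of 21 G proteins and receptors and one of 22 cyclic AMP effectors each had 1 gene higher and 0 lower in both classes, with 11 and 20 tested. Of all genes 0.909% were called higher and 0.481% lower in INS cells, and 0.797% higher and 0.438% lower in SST cells. The genes were GNAS, the stimulatory alpha subunit, and PKIB, an inhibitor of protein kinase A. GNAS rose in INS cells by a log2 fold change of 0.28 (adjusted p = 0.0255) and in SST cells by 0.38 (adjusted p = 0.000793). PKIB rose by 0.39 (adjusted p = 0.0344) and 0.59 (adjusted p = 0.000306). The INS and SST classes share cells as well as the GCG cells, so these calls are not independent. No gene of the cyclic GMP or calmodulin lists was called in either class.

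**Figure D3:**
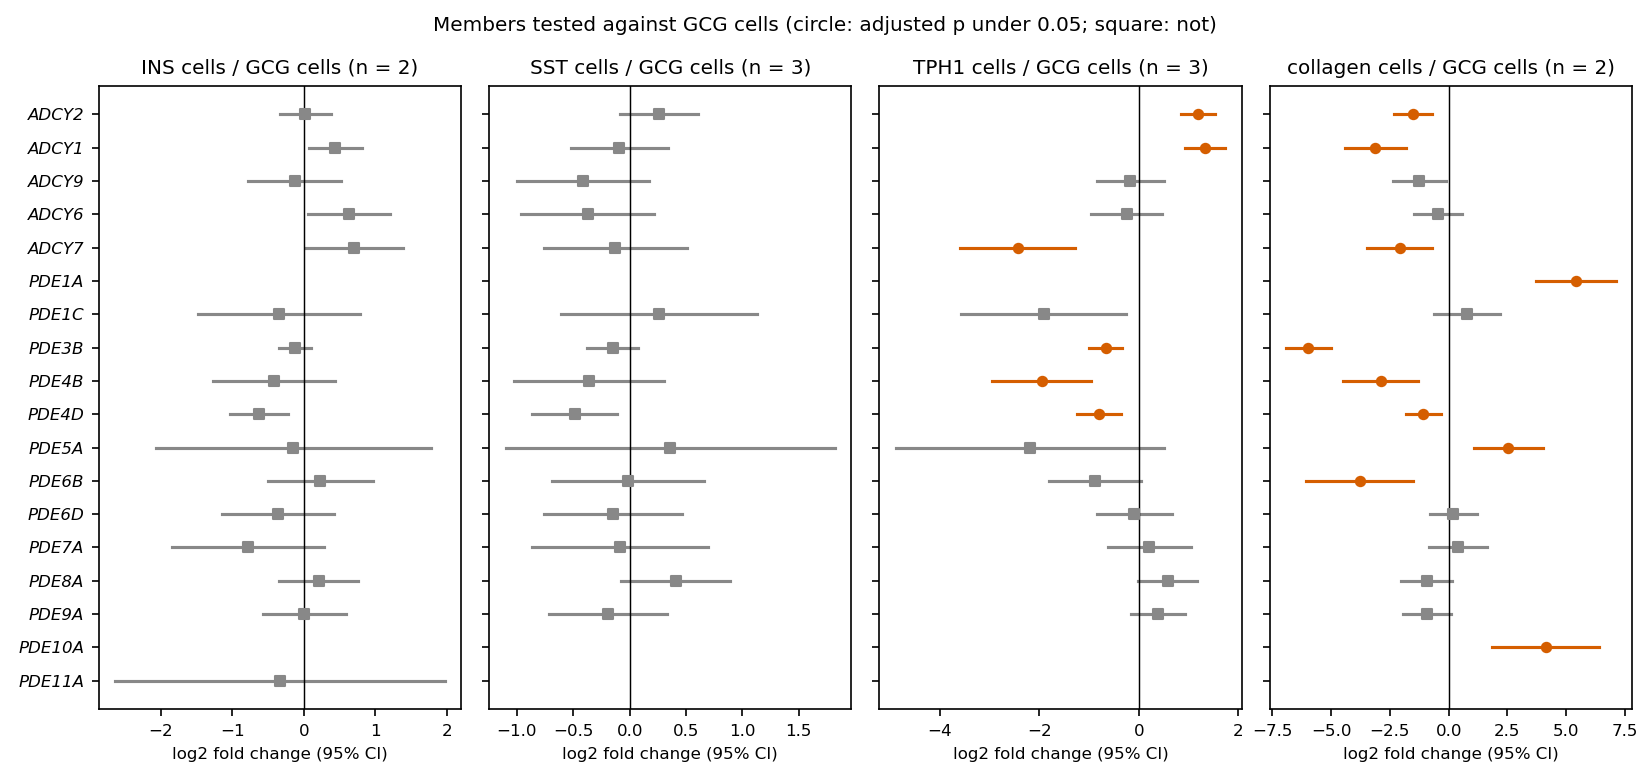
Log2 fold change (x axis, with 95% interval) of each member tested, for INS, SST, TPH1 and collagen cells over GCG cells; n is the number of libraries and the x axes differ in range. Circles mark an adjusted p under 0.05: 0 members in INS and SST cells, 6 in TPH1 cells and 10 in collagen cells.

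The cyclases ADCY2 and ADCY1 were the members higher in TPH1 cells. ADCY2 had 124, 134 and 148 CPM in TPH1 cells and 50.4, 41.7 and 38.0 CPM in GCG cells. The classes did not overlap, and ADCY2 rose in 3 of 3 libraries by a log2 fold change of 1.18 ± 0.16 (SE; adjusted p = 5.8e-05). ADCY1 had 147, 64.8 and 80.5 CPM in TPH1 cells and 34.0, 29.5 and 21.4 CPM in GCG cells, also without overlap, and rose by 1.34 ± 0.19 (adjusted p = 7.7e-05). Both calls held in all 17 settings tried. Cells of equal depth showed the same order: after thinning each cell to 5000 UMIs, ADCY2 had a UMI in 50, 50 and 48.9% of TPH1 cells and in 21.0, 15.9 and 15.0% of GCG cells. Before thinning the shares were 75, 70 and 62.6% of TPH1 cells and 50.1, 47.1 and 29.8% of GCG cells. Shares of cells here were not limited to the cells tested and include cells that fell in both classes. Thinning counts glucagon UMIs in the depth, so these shares, like CPM, were not scaled to the median gene. In thinned collagen cells, the class with the fewest cyclase UMIs, ADCY2 had a UMI in 0, 9.09 and 7.78%. ADCY1, again after thinning, had a UMI in 35.3, 22.2 and 24.4% of TPH1 cells and 16.2, 15.4 and 9.76% of GCG cells, with overlapping exact 95% intervals in replicate 2 (6.41 to 47.6% and 12.9 to 18.1%).

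**Figure D4:**
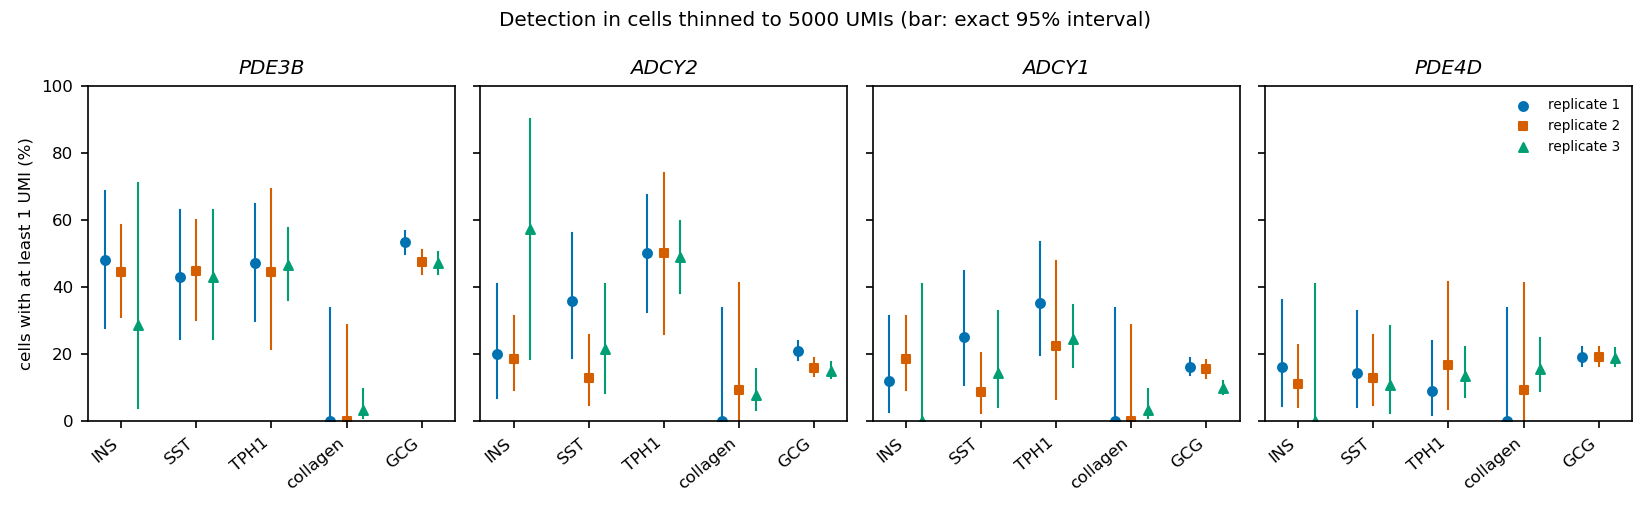
Share of cells with at least 1 UMI of PDE3B, ADCY2, ADCY1 or PDE4D (y axis, percent) after thinning to 5000 UMIs, by class and library; bars are Clopper-Pearson intervals at 95%, for counting error alone. ADCY2 is found in 48.9 to 50% of TPH1 cells and 15.0 to 21.0% of GCG cells, while PDE3B is found in 44.4 to 47.1% of TPH1 cells and 47.2 to 53.3% of GCG cells.

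RefSeq's promoter windows of ADCY1 and ADCY2 are shown because both genes moved together here. Each line gives the 250 bases before a listed start on the plus strand of GRCh38.p14, at chr7:45573890-45574139 for the first listed start of ADCY1 and at chr5:7395888-7396137 for ADCY2. Capitals mark TGACG, or CGTCA for its reverse complement, the core of the cyclic AMP response element.
ADCY1: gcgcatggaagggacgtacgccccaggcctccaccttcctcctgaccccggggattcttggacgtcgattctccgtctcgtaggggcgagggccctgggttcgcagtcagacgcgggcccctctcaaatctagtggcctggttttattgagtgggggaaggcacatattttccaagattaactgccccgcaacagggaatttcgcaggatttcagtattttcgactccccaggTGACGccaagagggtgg
ADCY2: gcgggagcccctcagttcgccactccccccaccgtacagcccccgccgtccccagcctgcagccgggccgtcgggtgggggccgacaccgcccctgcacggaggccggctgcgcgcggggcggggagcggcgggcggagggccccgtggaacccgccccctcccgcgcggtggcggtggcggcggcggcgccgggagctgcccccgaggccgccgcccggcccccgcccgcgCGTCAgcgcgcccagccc
The letters begin at position -17 from the start in ADCY1 and at -18 in ADCY2. On either strand, TGACG occurs in 12 of 74 windows from the 27 member symbols that matched (16.2%) and in 21.2% of the 35116 windows of all genes. The full element TGACGTCA, which contains TGACG, occurs in 1.35% and 1.65%. A match describes these letters and is no evidence of a bound site.

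In all, 6 of 15 members tested were called in TPH1 cells, where 14.2% of all 12791 genes were. Higher were 2 members (6.61% of all genes), and lower were 4 (7.61%): ADCY7, PDE4B, PDE4D and PDE3B. ADCY7 had 5.08, 0 and 3.50 CPM in TPH1 cells and 10.0, 10.4 and 15.6 CPM in GCG cells, did not overlap, and fell by 2.44 on the log2 scale (SE 0.55, adjusted p = 0.00505). PDE4B had 5.08, 4.32 and 4.67 CPM in TPH1 cells and 10.2, 10.3 and 15.8 CPM in GCG cells, and fell by 1.95 (SE 0.47, adjusted p = 0.0088). These rest on 5 and 7 UMIs in TPH1 cells. Without replicate 3 the adjusted p was 0.102 for ADCY7 and 0.231 for PDE4B, and that of PDE4B was 0.0897 with DESeq2 and 0.0671 in thinned cells.

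PDE3B and PDE4D were called lower relative to the median gene and were not called on plain CPM. PDE3B had 127, 94.98 and 131 CPM in TPH1 cells and 147, 137 and 128 CPM in GCG cells, which overlap, and its log2 fold change was -0.67 ± 0.15 (adjusted p = 0.00566). PDE4D had 30.5, 51.8 and 32.7 CPM in TPH1 cells and 42.8, 42.1 and 46.4 CPM in GCG cells, also overlapping, at -0.80 ± 0.21 (adjusted p = 0.0136); its adjusted p was 0.147 with DESeq2 and 0.0664 and 0.167 without replicates 1 and 3. Under TMM scaling the median gene stood at -0.014, and under plain CPM at 0.48. On plain CPM PDE3B was at -0.17 (adjusted p = 0.414) and PDE4D at -0.31 (adjusted p = 0.292), while PDE8A (1.07, adjusted p = 0.00839) and PDE9A (0.88, adjusted p = 0.0191) were called higher. Of all genes called, 46.5% were higher under TMM and 90.2% under plain CPM. GCG itself was at 1723 to 8099 CPM in TPH1 cells and 128764 to 162178 CPM in GCG cells; with hormone and TTR counts left out, the same 6 members were called under TMM. ADCY1, ADCY2, ADCY7 and PDE4B kept direction and call under both scalings.

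**Figure D5:**
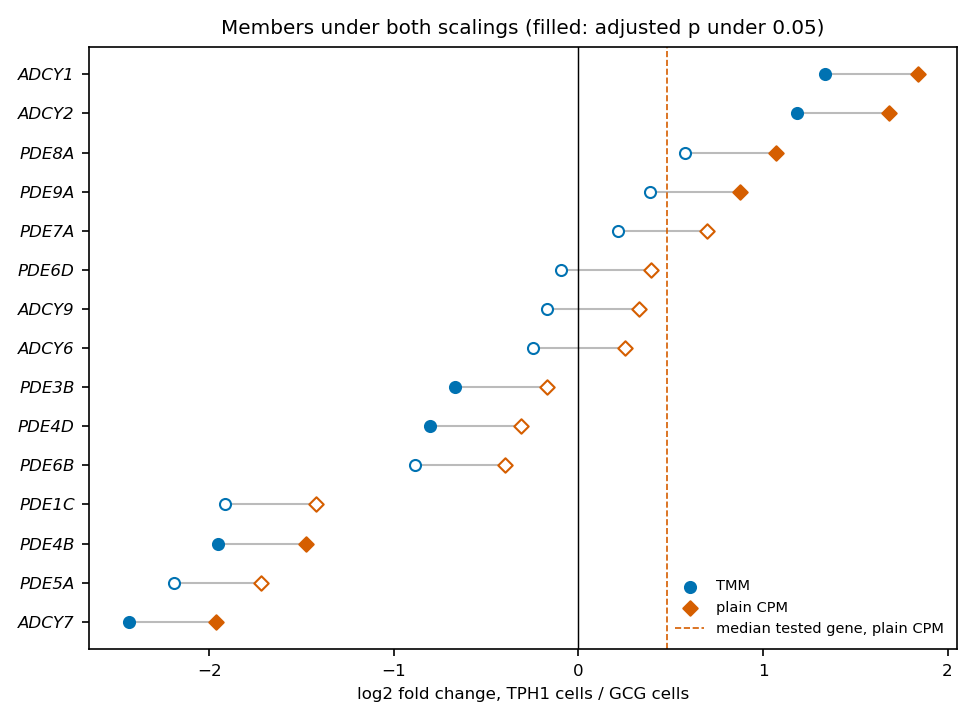
Log2 fold change of the 15 members tested in TPH1 cells over GCG cells (x axis) under TMM scaling (circles) and plain CPM (diamonds); filled symbols have an adjusted p under 0.05 and the dashed line is the median gene under plain CPM, at 0.48. ADCY1, ADCY2, PDE4B and ADCY7 are filled under both, PDE3B and PDE4D under TMM alone, and PDE8A and PDE9A under plain CPM alone.

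Among the 9 members tested and not called were PDE8A with 33.0, 21.6 and 33.8 CPM in TPH1 cells against 16.3, 16.9 and 12.9 CPM in GCG cells, and PDE9A with 35.5, 21.6 and 32.7 CPM in TPH1 cells against 16.2, 17.0 and 17.6 CPM in GCG cells. Neither gene's classes overlapped, and their TMM log2 fold changes were 0.58 (adjusted p = 0.209) and 0.39 (adjusted p = 0.409). ADCY9 was at -0.17, PDE6D at -0.09 and PDE6B at -0.88, none called. Without replicate 2, whose TPH1 cells carry LYZ, 8 members were called, among them PDE1C (1 UMI in the TPH1 cells left, adjusted p = 0.0105) and PDE5A (0 UMIs, adjusted p = 0.0451). The median was -0.25 over the members tested and -0.014 over all genes. Neural markers were higher in TPH1 cells of all 3 libraries and proliferation markers in those of replicate 2, as given above; their part in these differences was not tested.

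Pathway genes moved in both directions in TPH1 cells, where 6.61% of all genes were called higher and 7.61% lower. Of the G proteins and receptors 1 of 11 tested rose, the somatostatin receptor SSTR1 (log2 fold change 2.52, adjusted p = 1.26e-08), and 2 fell, the VIP receptor VIPR1 (-1.47, adjusted p = 0.0488) and GNAS (-0.71, and -0.19 on plain CPM). Cyclic AMP effectors had 3 of 20 higher and 1 lower. The risen genes were the kinase inhibitors PKIA (2.31) and PKIB (1.07) and PRKACB, a catalytic subunit of protein kinase A (1.11, adjusted p = 0.00039). In the cyclic GMP list of 9 genes, 2 of 6 tested rose, the guanylate cyclase subunits GUCY1B1 (2.03) and GUCY1A2 (1.89), and the natriuretic peptide receptor NPR1 fell by 2.08. CALM3, 1 of 3 calmodulin genes, was at -0.49 under TMM and 0.01 under plain CPM.

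PDE3B, the leading phosphodiesterase of the other classes, was nearly undetected in collagen cells. In replicates 2 and 3, which were tested, it had 1 and 2 UMIs in collagen cells (5.12 and 1.81 CPM), against 2311 and 1237 UMIs in GCG cells (137 and 128 CPM). Replicate 1, with 9 collagen cells, had 0 UMIs. The classes did not overlap, and the fitted log2 fold change was -5.96 ± 0.48 (adjusted p = 3.0e-33). With 2 libraries, that p-value rests mostly on spread shared over all genes. The pooled counts gave a level 58.1 times lower, with a counting interval of 19.9 to 282. Glucagon transcripts in collagen cells stood at 0.571, 0.473 and 0.574% of the GCG-cell level, and PDE3B at 0, 3.73 and 1.41%. PDE4D, at 46.0, 48.6 and 56.4%, was well above that. PDE3B was called in all 14 settings.

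Of 17 members tested in collagen cells 10 were called, where 39.5% of all 13244 genes were. The 3 higher (18.8% of all genes) were PDE1A, PDE10A and PDE5A. PDE1A, a calmodulin-activated enzyme, had 20.5 and 19.0 CPM in collagen cells and 0.12 and 0.62 CPM in GCG cells, with no overlap, and rose by 5.40 ± 0.86 on the log2 scale (adjusted p = 4.4e-09). All 4 of its UMIs in replicate 2 came from 1 cell, and it had none in replicate 1. PDE10A, which accepts both nucleotides, had 2 and 6 UMIs in collagen cells (10.2 and 5.42 CPM) and 0.36 and 0.31 CPM in GCG cells, and rose by 4.12 ± 1.2 (adjusted p = 0.0017). PDE5A, the cyclic GMP enzyme inhibited by sildenafil, had 10.2 and 17.2 CPM in collagen cells and 1.60 and 2.48 CPM in GCG cells, and rose by 2.54 ± 0.75 (adjusted p = 0.00266). In replicate 1 it led the phosphodiesterases of collagen cells with 8 UMIs, 7 of them from 1 cell.

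The 7 lower members (20.7% of all genes) were PDE3B, PDE6B, ADCY1, PDE4B, ADCY7, ADCY2 and PDE4D. ADCY1 had 0 and 4 UMIs in collagen cells (0 and 3.61 CPM), against 29.5 and 21.4 CPM in GCG cells, and fell by 3.11 (SE 0.65, adjusted p = 1.2e-05). ADCY2 had 5.12 and 19.0 CPM in collagen cells and 41.7 and 38.0 CPM in GCG cells, and fell by 1.51 (SE 0.42, adjusted p = 0.00124). In both genes every collagen value lay under every GCG value. PDE4D had 20.5 and 26.2 CPM in collagen cells and 42.1 and 46.4 CPM in GCG cells, and fell by 1.08 (SE 0.38, adjusted p = 0.0131). In cells thinned to 5000 UMIs the adjusted p was 0.305 for ADCY2 and 0.374 for PDE4D. ADCY7 fell by 2.09, with 5 UMIs in collagen cells. PDE6B had 1 UMI and PDE4B 3 UMIs in collagen cells; their pooled levels were 13.1 times (counting interval 2.32 to 518) and 5.34 times (1.81 to 26.0) lower. The fitted values were -3.79 (adjusted p = 0.00397) for PDE6B and -2.89 (adjusted p = 0.00148) for PDE4B. In replicate 1, outside the test, collagen cells had PDE6B at 13.1 CPM and PDE4B at 19.7 CPM, above GCG cells at 10.2 CPM for each.

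The isoforms of collagen cells were thus spread over several genes, and no member led in all 3 libraries. PDE5A led in replicate 1, PDE4D, PDE9A, PDE6D and PDE1A tied at 4 UMIs in replicate 2, and PDE4D led in replicate 3 with 29 UMIs, or 17.2%. ADCY3, the cyclase of olfactory neurons, led the cyclases of replicate 1 with 3 UMIs, ADCY2, ADCY6 and ADCY7 tied at 1 UMI in replicate 2, and ADCY2 led in replicate 3 with 21. ADCY3 had 19.7, 0 and 9.87 CPM in collagen cells and 0.26, 0.37 and 0.30 CPM in GCG cells, but did not pass the filter on low counts. The cyclic GMP-inhibited PDE3A, a relative of PDE3B, did not pass it either, with 1, 0 and 11 UMIs in collagen cells and 2, 2 and 1 in GCG cells; both were called higher when no filter was used. The median over the members tested was -0.93 and over all genes -0.19. Proliferation and neural markers were also higher in these cells, as given above; their part in these differences was not tested. The DESeq2 test called 4 members, PDE3B, ADCY1, PDE1A and PDE10A, and the fit of all 3 libraries, added after the data were seen, could not test PDE1A and PDE10A.

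The pathway genes called in collagen cells were mostly lower, where 20.7% of all genes were called lower and 18.8% higher. Of 11 G proteins and receptors tested 9 fell and 0 rose. The somatostatin receptor SSTR2 fell by 6.23 (adjusted p = 1.91e-65), and SSTR3 and VIPR1, with 0 UMIs in the collagen cells tested, were at least 8.82-fold and 4.44-fold lower (floor of 3 counts over the class). Among cyclic AMP effectors 11 of 20 fell, such as the anchoring protein AKAP1 by 3.15, and 1 rose, the kinase inhibitor PKIG (1.04). RAPGEF4, which encodes Epac2, had 1 UMI in collagen cells against 337 in GCG cells, and POPDC3 1 against 154. In the cyclic GMP list 3 of 6 rose and 1 fell: cyclic GMP-dependent kinase PRKG1 rose by 6.81 (adjusted p = 5.04e-21) and GUCY1B1 by 2.99, while NPR1, with 0 UMIs in collagen cells, was at least 3.16-fold lower. CALM3 fell by 0.54 (adjusted p = 0.0493).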

How the data were processed

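The authors deposited raw UMI counts per gene and barcode, made with Cell Ranger 4.0.0 on GRCh38 per the submitters' processing notes. No source used here states whether counting used strand. Members and lists were chosen with earlier results of these data known, and the collagen rule (10 UMIs over 3 genes) was set here. Counts were summed per class and library. edgeR 4.0.16 (TMM, filterByExpr, quasi-likelihood, library as block, adjusted p under 0.05) in R 4.3.3 was the test; libraries needed 10 cells of a class. The library is the block because both classes come from the same library. Given with values were the 3 cyclases and 6 phosphodiesterases highest in GCG cells, the highest of other classes, all called members, and up to 3 pathway genes per list and comparison. Scrublet (scanpy 1.11.5) marked 18, 11 and 18 doublets, kept in the main values. Kept cells shared 0 barcodes between libraries. Within 20% below and above a threshold lay 35 and 20 (INS), 26 and 14 (SST), 21 and 12 (TPH1, at 2 and 3 UMIs), 2 and 5 (collagen) and 121 and 145 (GCG) cells. Thinning left out 6 INS, 10 SST, 21 TPH1, 8 collagen and 176 GCG cells under 5000 UMIs. Intervals cover counting error only. The test was checked on simulated counts, where it recovered 78.6, 88.9, 76.9 and 47.1% of 2-fold changes for INS, SST, TPH1 and collagen cells. Changes were planted only in genes above the level of most members, so recovery at the level of most members was not checked. Apart from them, both simulated classes had the same mean profile, with a fixed spread. The check therefore does not cover a shift of the median gene such as that of TPH1 cells under plain CPM. Positions are from GENCODE on GRCh38, where 35 of 35 identifiers matched; 5 members overlap a same-strand exon and 19 an antisense exon.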

Additional observations from a re-analysis of the deposited data

How the results depend on the processing

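In INS and SST cells no member was called under any alternative run. In TPH1 cells the count of 6 called members ranged from 3 to 8 when 1 library was left out; without replicate 3 (3 called) ADCY7, PDE4B and PDE4D were lost, and without replicate 1 PDE4D was. In collagen cells the count of 10 was 4 with the DESeq2 Wald test and 4 with cells thinned to 5000 UMIs, where PDE3B, ADCY1 and ADCY7 kept their calls and PDE8A was gained; thinning leaves fewer counts. The share of cyclase UMIs held by ADCY2 in GCG cells was 34.7% in thinned cells against 38.1% in all counts, and the cause was not tested. No result reversed sign while called. The remaining values were those of single members and the leading-gene shares outside GCG cells, each under each alternative. Of these, 877 kept their call or, for shares, stayed within 1 SD. Another 12 gained a call, 20 lost one and 2 shares moved. The 877 include members not called that changed sign, such as ADCY1 in SST cells (-1.28 to 0.18). The fit with no replicate block called 0 members in INS, 0 in SST, 6 in TPH1 and 10 in collagen cells, so the pairing by library changed no count of calls. INS cells under 5% GCG and a collagen share rule left fewer than 2 libraries with 10 cells and were not run, and no library was left out for INS and collagen cells, tested on 2 libraries, because a fit to the 1 library left would have no residual degrees of freedom. Depth limits the collagen class most: 3 UMIs over its tested libraries equal 2.3 CPM.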
